A study of Mus musculus with 48 samples.

Results

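The comparison described here is that of E6l2-KO cells kept at high cell density (HCD) with E6l2-KO cells kept at low density with DMSO. Members were defined by their labels, with earlier results of these data known. They were the 3 E6l2-KO HCD libraries and the 3 E6l2-KO DMSO libraries, 6 of the 48 RNA-seq libraries of the series. HCD wells had been seeded with 4000000 cells and DMSO wells with 250000 cells, and both were harvested after 48 h. The labels name DMSO, the usual solvent control for drugs, only for the low density wells, so density and the labelled solvent cannot be told apart. All groups used were mouse Cas9-Hoxb8 cells, a Cas9-expressing progenitor line held immature by the Hoxb8 transgene and labelled as granulocyte-monocyte progenitors (GMP). E6l2-KO denotes disruption of Ercc6l2, and E6l2-Trp53-KO denotes disruption of Ercc6l2 and Trp53 together. For comparison, E6l2-KO cells with Etoposide (250000 cells, 48 h, 3 libraries), wildtype HCD and DMSO cells (3 libraries each) and E6l2-Trp53-KO HCD and DMSO cells (3 libraries each) were used. Cells had been sorted directly into lysis buffer. The concentration of etoposide, the number of edited lines behind each genotype and whether replicates came from separate cultures are not stated in the labels. The p-values therefore measure only the spread between libraries. In the gene tests this spread was taken from 36 libraries of 12 groups. Besides those above, they were Trp53-KO cells (disruption of Trp53 alone) with HCD, DMSO or Etoposide, and wildtype and E6l2-Trp53-KO cells with Etoposide.

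As background, a culture seeded densely consumes oxygen, glucose, amino acids and growth factors faster than a sparse one. Low oxygen stabilises the HIF transcription factors, which drive glycolytic enzymes and oxygen-sparing genes. Shortage of amino acids activates the kinase GCN2, and the slowed translation that follows favours synthesis of ATF4, which drives amino acid synthesis, uptake and tRNA charging genes (the integrated stress response, ISR). ERCC6L2 is a helicase-like protein of DNA end joining whose loss causes an inherited bone marrow failure. The series sets cells without ERCC6L2, p53 or both against wildtype cells under drug and crowding stress.

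Library totals were 23550893, 26655656 and 27292524 counts in the HCD group, against 29689393, 27047106 and 31892765 counts in the DMSO group. Ercc6l2 itself had 26.2, 29.6 and 30.9 CPM (counts per 1000000 counts of the library, scaled by TMM factors) in HCD libraries and 28.2, 29.2 and 26.5 CPM in DMSO libraries, ranges that overlapped. A small edit can leave the level of the mRNA as it was, so this does not check the genotype. Of the 10 markers taken for the GMP label, Mpo (2813 ± 133 CPM in HCD, 2372 ± 220.0 in DMSO; SD, n = 3 each), Ctsg (4109.5 ± 245 in HCD, 2682 ± 163 in DMSO) and Cd34 (1385 ± 30.4 in HCD, 1419 ± 47.4 in DMSO) were abundant in both groups. Csf1r, the receptor of macrophage colony-stimulating factor, was low, at 1.27, 1.66 and 1.06 CPM in HCD and 0.729, 0.87 and 0.869 CPM in DMSO libraries. Elane, another of the 10, was far less abundant than Mpo and lower in HCD, and Ms4a3 was also lower in HCD. Kit and Cebpa were higher in HCD. Values for these genes are given below, and Prtn3 and Fcgr3 are not described here. Genes for 80 ribosomal proteins took up 18.1 ± 1.02% of counts in HCD and 14.5 ± 0.379% in DMSO libraries (SD, n = 3 each), without overlap (exact two-sided permutation test, p = 0.1, the smallest that 3 against 3 libraries allow). Every level and fold change below is relative to the other genes of the same library.

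High density was accompanied by a broad change. Of 14059 genes tested, 3132 (22.3%) were higher and 2592 (18.4%) lower in HCD than in DMSO cells at an adjusted p under 0.05 (edgeR quasi-likelihood test), with a median log2 fold change of -0.01 over all genes. Most called changes were small, with a median size of 0.35 on the log2 scale. At least 2-fold changes were found for 358 genes upward (2.55%) and 291 genes downward (2.07%). In bulk RNA, fewer cells of a type and less RNA per cell cannot be told apart.

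Among genes of at least 5 CPM, the 14 with the largest rises ranged from a prostaglandin synthase to the inflammasome sensor Nlrp3. Ptgds, which makes prostaglandin D2, had 123, 141 and 113 CPM in HCD libraries and 16.1, 22.03 and 16.4 CPM in DMSO libraries. All 3 HCD libraries lay above the DMSO libraries by a wide margin, a 6.93-fold difference (log2 fold change 2.79 ± 0.10 SE, adjusted p = 3.71e-21). Cox6a2, the muscle form of a cytochrome c oxidase subunit, reached 10.996, 16.8 and 10.97 CPM in HCD and 1.56, 1.43 and 1.32 CPM in DMSO libraries (log2 fold change 3.17 ± 0.26). Its exons overlap those of Itgad on the opposite strand, and the counting is not stated to use strand, so its reads are uncertain. Egfl7, a secreted protein of vessels and progenitors and host of the microRNA gene Mir126a, had 84.5, 67.6 and 72.0 CPM in HCD and 11.4, 9.74 and 12.9 CPM in DMSO libraries (log2 fold change 2.71 ± 0.11). The same pattern of separated groups held for the endosomal receptor Tlr12 (2.70 ± 0.15), the adaptor Sla2 (2.56 ± 0.19), the myeloid receptor Cd300lb (2.27 ± 0.10) and the receptor Gpr171 (1.89 ± 0.09). Latent TGF-β binding proteins rose as a pair. Ltbp3 had 12.5, 10.9 and 11.2 CPM in HCD and 1.86, 2.58 and 2.46 CPM in DMSO libraries, and Ltbp4 had 11.2, 10.3 and 10.7 CPM in HCD and 2.16, 2.75 and 2.79 CPM in DMSO libraries. Both rose by over 2 on the log2 scale (2.33 ± 0.14 for Ltbp3, 2.06 ± 0.17 for Ltbp4). Tgfb1, the ligand they hold in latent form, rose by 0.58 ± 0.09 on the log2 scale. Nlrp3, the sensor of the inflammasome, had 11.2, 8.78 and 10.02 CPM in HCD and 1.99, 2.54 and 2.07 CPM in DMSO libraries (log2 fold change 2.18 ± 0.16). Emilin2, an extracellular matrix glycoprotein (1.89 ± 0.16), and Haao, an enzyme of tryptophan breakdown (1.88 ± 0.10), completed the 14 genes named by size together with Egr1 and Trib3, which are described with their groups below. Exons of Egfl7, Ltbp3 and Sla2 also overlap genes on the opposite strand, and those of Egfl7 overlap Gm20532 on the same strand.

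**Figure D1:**
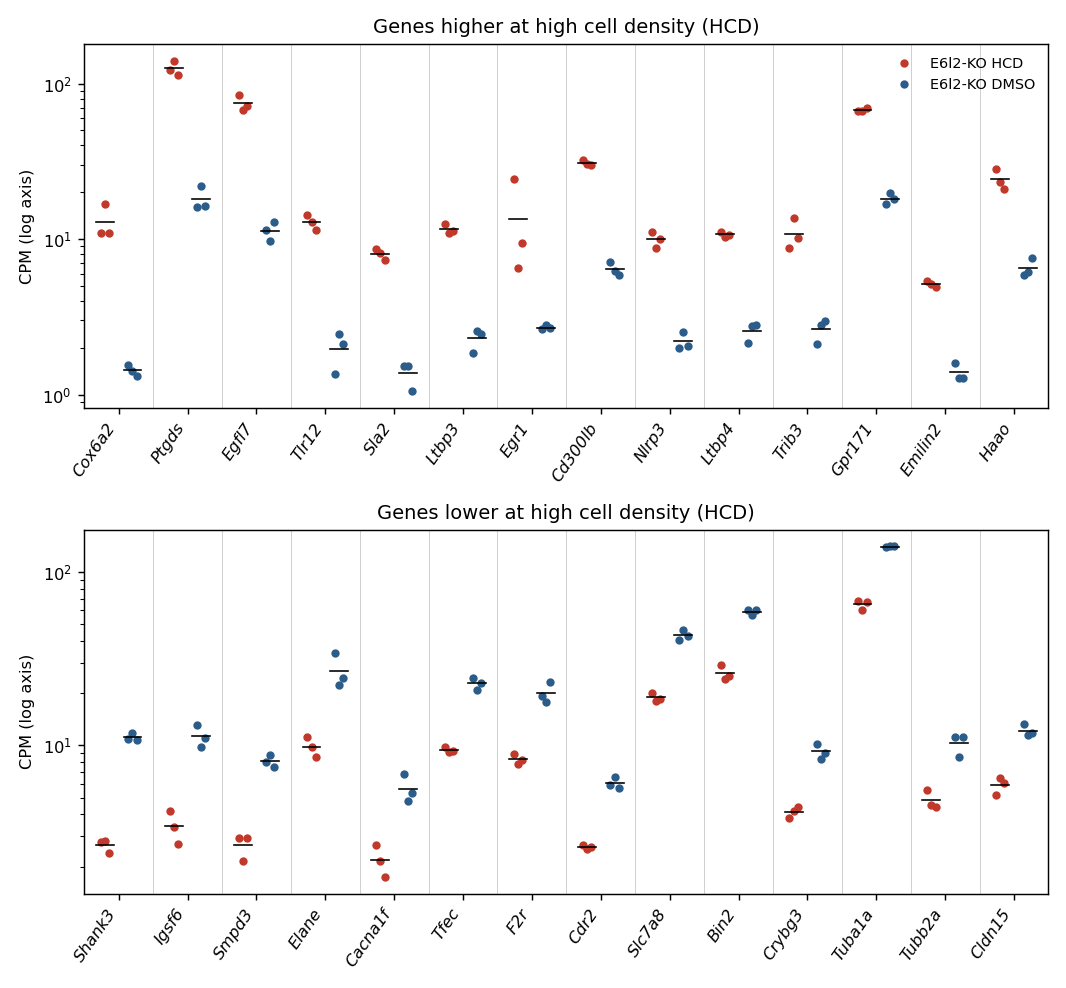
CPM (log axis) of the 14 genes with the largest rise (upper panel) and the 14 with the largest fall (lower panel) in E6l2-KO HCD cells (red) against E6l2-KO DMSO cells (blue). Points are the 3 libraries of a group and black lines their means; the groups do not overlap for any gene shown, which the choice of genes required.

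The 14 genes with the largest falls included Shank3 and the neutrophil elastase gene Elane. Shank3, a scaffold best known from synapses, had 2.76, 2.81 and 2.38 CPM in HCD libraries and 10.8, 11.8 and 10.7 CPM in DMSO libraries, 4.19-fold lower (log2 fold change -2.07 ± 0.13, adjusted p = 4.81e-14). Elane had 11.1, 9.81 and 8.55 CPM in HCD and 33.9, 22.2 and 24.4 CPM in DMSO libraries (log2 fold change -1.45 ± 0.14). The lowest DMSO library lay above the highest HCD library, and DMSO replicate 1 stood above the other DMSO libraries. Igsf6, an immunoglobulin-family membrane protein of myeloid cells, had 4.21, 3.39 and 2.69 CPM in HCD and 13.2, 9.74 and 11.1 CPM in DMSO libraries (log2 fold change -1.74 ± 0.14). Tubulin genes were among the fallers. Tuba1a, an alpha-tubulin, had 67.5, 60.6 and 66.8 CPM in HCD and 138, 140.4 and 141 CPM in DMSO libraries, a close spread in each group (log2 fold change -1.11 ± 0.09), and Tubb2a fell as well (-1.09 ± 0.14). Falls of similar size were measured for the sphingomyelinase Smpd3 (-1.60 ± 0.17), the calcium channel subunit Cacna1f (-1.37 ± 0.19), the MiT-family transcription factor Tfec (-1.28 ± 0.10), the thrombin receptor F2r (-1.27 ± 0.14) and the neutral amino acid transporter Slc7a8 (-1.19 ± 0.08). Cdr2 (-1.21 ± 0.12), the membrane-curving protein Bin2 (-1.18 ± 0.08), Crybg3 (-1.15 ± 0.12) and the tight junction protein Cldn15 (-1.04 ± 0.11) made up the rest. Exons of Shank3, Smpd3 and Crybg3 overlap genes on the opposite strand, and those of Tuba1a overlap Gm49450 on the same strand.

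Nearly all members of the hypoxia and glycolysis list rose. Of its 35 members tested, 33 were higher and 0 lower in HCD cells, where 22.3% of all genes were higher, and the median log2 fold change of the members was 0.58. Promoters are shown only for named members with a matching promoter entry, taken in order of size of change, so each holds a match by choice. Ndrg1, with a slightly larger rise than Ak4, was passed over by this rule. The letters ACGTG or their complement CACGT, the core of the hypoxia response element, are in capitals. The sequences are read 5′ to 3′ on the gene's strand from 250 bases before to 50 after the annotated start (RefSeq, GRCm38.p6). Ankrd37, an ankyrin repeat protein long used as a HIF target, lies on the minus strand at chr8:45999801-46000100, and Ak4, a mitochondrial adenylate kinase, on the plus strand at chr4:101419453-101419752.
Ankrd37: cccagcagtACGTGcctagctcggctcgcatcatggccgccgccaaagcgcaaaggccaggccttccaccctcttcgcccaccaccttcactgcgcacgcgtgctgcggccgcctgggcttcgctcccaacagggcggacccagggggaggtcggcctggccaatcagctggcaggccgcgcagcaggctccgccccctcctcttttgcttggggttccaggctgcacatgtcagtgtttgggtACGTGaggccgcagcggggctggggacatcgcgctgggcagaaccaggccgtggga
Ak4: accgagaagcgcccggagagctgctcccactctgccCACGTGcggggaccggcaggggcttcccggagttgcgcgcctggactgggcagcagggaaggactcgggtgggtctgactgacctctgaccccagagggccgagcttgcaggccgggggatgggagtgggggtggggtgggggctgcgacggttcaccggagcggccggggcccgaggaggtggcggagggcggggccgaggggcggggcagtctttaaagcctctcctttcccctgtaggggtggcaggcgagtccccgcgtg
In the Ak4 window the match on each strand overlaps the other, forming the palindrome CACGTG that is also the E-box core. Letters ACGTG on either strand were present in promoters of 25 of the 34 list genes with a promoter entry (73.5%), in 21.8% of the 27025 genes of the whole table, and in 25% to 39.5% of genes in the ATF4, lysosome, NRF2 and cholesterol lists. A match describes the letters and not a binding site.

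Ankrd37 had 22.6, 24.2 and 19.0 CPM in HCD libraries and 7.06, 8.25 and 9.01 CPM in DMSO libraries, 2.70-fold higher (log2 fold change 1.43 ± 0.17, adjusted p = 4.31e-08), with exons that overlap Lrp2bp and Ufsp2 on the opposite strand. Ak4 had 18.9, 20.7 and 19.7 CPM in HCD and 7.20, 8.32 and 9.85 CPM in DMSO libraries (log2 fold change 1.22 ± 0.14). In both genes the lowest HCD library lay well above the highest DMSO library. Bnip3, a mediator of mitophagy, had 194, 177 and 178 CPM in HCD and 78.0, 74.6 and 85.0 CPM in DMSO libraries (log2 fold change 1.21 ± 0.10), and P4ha1, a collagen prolyl hydroxylase, had 150.5, 139 and 147 CPM in HCD and 66.1, 65.8 and 70.2 CPM in DMSO libraries (1.11 ± 0.07). Ndrg1, a stress-responsive growth regulator, rose by 1.25 ± 0.08. Vegfa, the vascular growth factor, had 57.6, 53.8 and 51.8 CPM in HCD and 23.8, 26.4 and 27.3 CPM in DMSO libraries (log2 fold change 1.07 ± 0.09). Along the glycolytic path, the glucose transporter Slc2a1 rose by 0.41 ± 0.13 and lactate dehydrogenase Ldha by 0.49 ± 0.06 on the log2 scale. Pdk1, the kinase that inhibits pyruvate dehydrogenase, rose by 0.90 ± 0.06. The call of Slc2a1 was lost without HCD replicate 2. Of the respiratory chain list, 1 of 40 members was higher and 10 were lower (18.4% of all genes were lower), with a median of -0.06 that became -0.02 without DMSO replicate 1, -0.03 without HCD replicate 3 and -0.13 without HCD replicate 2. With the length and GC offset, 16 members were lower. Ndufa4, a subunit of cytochrome c oxidase (-0.44 ± 0.09), and Cyc1, of the cytochrome bc1 complex (-0.40 ± 0.06), were among those lower.

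Most target genes of ATF4 rose too. Of 41 list members tested, 33 were higher and 0 lower in HCD cells, against 22.3% and 18.4% of all genes. The median log2 fold change of the members was 0.42. Promoters are shown for the named members with the largest rises among those with a matching promoter entry, so each holds a match by choice. The letters TGATGNA, or their complement TNCATCA, are in capitals (the ATF4 composite site, RefSeq, GRCm38.p6, same window). Trib3, a pseudokinase that feeds back on ATF4, lies on the minus strand at chr2:152344011-152344310, and Slc6a9, a glycine transporter, on the plus strand at chr4:117849100-117849399.
Trib3: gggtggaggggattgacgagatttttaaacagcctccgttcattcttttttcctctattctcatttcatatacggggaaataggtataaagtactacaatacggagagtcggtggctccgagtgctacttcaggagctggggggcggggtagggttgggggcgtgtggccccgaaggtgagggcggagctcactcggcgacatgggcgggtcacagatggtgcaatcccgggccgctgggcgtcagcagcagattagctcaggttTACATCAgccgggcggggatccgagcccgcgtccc
Slc6a9: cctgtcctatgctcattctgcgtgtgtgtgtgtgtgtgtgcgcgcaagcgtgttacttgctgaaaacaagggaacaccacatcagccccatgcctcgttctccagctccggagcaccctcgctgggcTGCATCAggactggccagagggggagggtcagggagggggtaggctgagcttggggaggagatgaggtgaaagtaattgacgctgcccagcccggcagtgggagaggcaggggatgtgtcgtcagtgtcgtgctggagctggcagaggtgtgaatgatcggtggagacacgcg
These letters were found on either strand in promoters of 19 of the 38 list genes with an entry (50%), in 13.8% of genes of the whole table in 0 of the 34 hypoxia list genes with an entry, and in 14.3% to 20.8% of genes in the NRF2, lysosome and cholesterol lists. For Ak4 and Slc6a9, which have 4 and 3 promoter entries, 1 entry with a match is shown.

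Trib3 had 8.81, 13.7 and 10.1 CPM in HCD libraries and 2.12, 2.78 and 2.96 CPM in DMSO libraries, 4.13-fold higher (log2 fold change 2.04 ± 0.21, adjusted p = 9.23e-10). Slc6a9 had 4.91, 8.44 and 6.85 CPM in HCD and 1.36, 2.85 and 1.86 CPM in DMSO libraries (log2 fold change 1.74 ± 0.27). For both, every HCD library lay above every DMSO library, and HCD replicate 1 was the lowest of its group. Exons of Slc6a9 overlap 3 genes on the opposite strand. Chac1, which degrades glutathione, had 21.2, 22.5 and 22.05 CPM in HCD and 6.90, 6.93 and 7.22 CPM in DMSO libraries (log2 fold change 1.64 ± 0.12). Pycr1, the last enzyme of proline synthesis, rose by 1.74 ± 0.16, and Nupr1, a stress-induced chromatin protein, by 1.36 ± 0.12. Asns, asparagine synthetase, had 174, 221 and 225 CPM in HCD and 116, 115 and 124 CPM in DMSO libraries (log2 fold change 0.80 ± 0.10), and Atf4 itself rose by 0.35 ± 0.07. The 8 members without a call were Phgdh, Psph, Slc7a1, Vldlr, Cbs, Wars, Aars and Tars, with log2 fold changes between -0.05 for Slc7a1 and 0.47 for Vldlr. The endoplasmic reticulum branch of the unfolded protein response did not move in this way. Of its 24 members, 4 were higher and 8 lower (22.3% and 18.4% of all genes), with a median of -0.08. Its chaperone genes Hspa5 (log2 fold change -0.22 ± 0.05), Dnajb11 (-0.38 ± 0.06) and Hyou1 (-0.29 ± 0.05) fell, while Herpud1 (0.37 ± 0.05) and Dnajb9 (0.37 ± 0.09) rose.

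**Figure D2:**
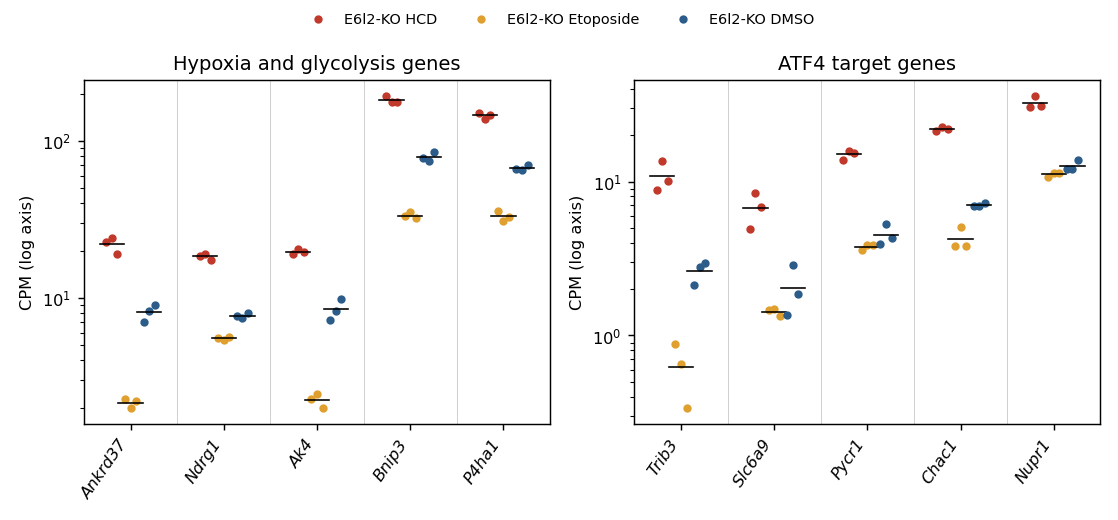
CPM (log axis) of the 5 called members with the largest change in the hypoxia and glycolysis list (left) and the ATF4 target list (right), in E6l2-KO HCD (red), Etoposide (orange) and DMSO (blue) cells. Points are the 3 libraries of a group and black lines their means; HCD libraries are the highest for all 10 genes.

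Immediate early genes and feedback inhibitors of MAPK signalling were higher as well, 20 of 31 members tested and 0 lower, with a median log2 fold change of 0.52. List counts in this paragraph stand beside 22.3% higher and 18.4% lower over all genes. Egr1, a transcription factor induced within minutes of growth factor stimulation, had 24.5, 6.54 and 9.45 CPM in HCD libraries and 2.65, 2.78 and 2.67 CPM in DMSO libraries. The HCD group did not overlap the DMSO group, but replicate 1 stood far above the other HCD libraries (log2 fold change 2.31 ± 0.38, adjusted p = 7.93e-06). Fos showed the same order, with 9.33, 4.47 and 4.39 CPM in HCD and 2.09, 1.53 and 1.32 CPM in DMSO libraries (log2 fold change 1.87 ± 0.33). Less variable members were Ier3, an early response gene of survival signalling (1.11 ± 0.11), Ier2 (0.90 ± 0.13) and the phosphatase Dusp2 (0.89 ± 0.10). Targets of cytokine receptor (JAK-STAT) signalling were higher for 10 and lower for 2 of 16 members (median 0.32), among them the kinase Pim1 (0.67 ± 0.06), cyclin Ccnd2 (0.41 ± 0.07) and the feedback inhibitor Socs2 (0.35 ± 0.09), against lower Pim2 (-0.50 ± 0.20) and the survival factor Bcl2l1 (-0.43 ± 0.06). Of 26 NF-kB, chemokine and cytokine genes, 10 were higher and 3 lower (median 0.30, or 0.19 without DMSO replicate 2). The lower count was 1 without HCD replicate 2 or 3 or DMSO replicate 3. The NF-kB inhibitors Tnfaip3 (0.53 ± 0.08) and Nfkbie (0.34 ± 0.11) and the growth factor Csf1 (0.46 ± 0.12) rose, whereas Tnf fell (-0.44 ± 0.15). The call of Pim2 was lost without HCD replicate 2 or 3 or any 1 DMSO library, that of Tnf without HCD replicate 2 or 3 or DMSO replicate 1 or 2, and that of Nfkbie without HCD replicate 1 or DMSO replicate 1. Myc had 268, 273 and 254 CPM in HCD and 173, 172 and 161 CPM in DMSO libraries, with no overlap (log2 fold change 0.65 ± 0.07).

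Genes of proliferation were lower by small amounts. Over all genes, 22.3% were higher and 18.4% lower. In the S phase and DNA replication list, 26 of 43 members fell and 1 rose (median -0.17), and in the G2/M and mitosis list 29 of 40 fell and 0 rose (median -0.19). Ccne1, the cyclin that starts S phase, had 10.6, 12.0 and 11.9 CPM in HCD and 18.9, 19.5 and 20.005 CPM in DMSO libraries (log2 fold change -0.76 ± 0.09). The flap nuclease Fen1 (-0.49 ± 0.06), thymidylate synthase Tyms (-0.44 ± 0.05), the cytokinesis motor Kif20a (-0.50 ± 0.06) and the mitotic activator Cdc20 (-0.41 ± 0.06) also fell. CDK inhibitors and quiescence genes went the other way, with 15 of 22 members higher, 1 lower and a median of 0.44. Txnip, a glucose-sensing inhibitor of glucose uptake, had 219, 182 and 198 CPM in HCD and 66.4, 63.1 and 55.3 CPM in DMSO libraries (log2 fold change 1.69 ± 0.14). This was the largest fold among the list members of at least 5 CPM, followed by Ypel3, a growth suppressor (1.43 ± 0.09), Cdkn1a, and Ddit4, an inhibitor of mTORC1 (1.21 ± 0.16). Exons of Txnip overlap Gm15441 on the opposite strand.

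The targets of p53 did not move together. Of 36 members tested, 15 were higher and 8 lower, with a median of 0.02. Trp53 itself had 77.0, 80.4 and 78.2 CPM in HCD and 86.6, 85.3 and 80.0 CPM in DMSO libraries, which was not called. Cdkn1a, the p21 inhibitor of cyclin-dependent kinases, had 17.4, 19.4 and 16.0 CPM in HCD and 5.70, 7.80 and 7.43 CPM in DMSO libraries, 2.52-fold higher (log2 fold change 1.33 ± 0.15, adjusted p = 5.17e-09). Mdm2, the ubiquitin ligase that limits p53, had 32.3, 30.8 and 34.0 CPM in HCD and 43.2, 42.6 and 41.0 CPM in DMSO libraries and was lower (log2 fold change -0.38 ± 0.05). Ccng1, a p53-induced cyclin, had 81.4, 93.2 and 89.0 CPM in HCD and 86.0, 89.2 and 86.3 CPM in DMSO libraries, overlapping ranges and no call. Higher members included the death effector Bbc3 (PUMA; 0.76 ± 0.10), the repair gene Ddb2 (0.79 ± 0.15), Sesn2 (0.82 ± 0.08) and Ddit4, and the last 2 also stand in the ATF4 list. In the BCL2 family, 6 of 14 members were higher and 3 lower (median 0.00). Those higher included the BH3-only genes Bcl2l11 (BIM; 0.81 ± 0.06) and Bbc3, and those lower the survival genes Bcl2l1 and Bcl2 (-0.29 ± 0.05) and the BH3-only gene Bad (-0.26 ± 0.08). DNA repair and damage signalling genes were called about as often as all genes (22.3% higher, 18.4% lower), 8 higher and 10 lower of 40 (median -0.04). Members lower included the Fanconi anaemia genes Fancb (-0.58 ± 0.09), Fanca (-0.55 ± 0.06) and Fancm (-0.53 ± 0.05) and the end-joining polymerase Polq (-0.45 ± 0.06). These are single members, the 8 higher members are not named here, and the list as a whole did not fall.

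Ribosomal protein genes rose, while many members of the ribosome biogenesis and lipid synthesis lists fell. Of 44 cytosolic ribosomal protein genes tested, 43 were higher and 0 lower, with a median log2 fold change of 0.46. Rpl12 had 3674, 4320.1 and 3635 CPM in HCD and 2650.5, 2434 and 2499.7 CPM in DMSO libraries, and Rpl23 had 3071, 3744 and 3181 CPM in HCD and 2303, 2077 and 2145 CPM in DMSO libraries. These genes have many processed copies, and reads may be divided among them. Genes of ribosome biogenesis were lower for 18 and higher for 0 of 40 members (median -0.13), including Utp20 (-0.38 ± 0.08), Bop1 (-0.38 ± 0.08) and Grwd1 (-0.36 ± 0.07). The lower count was 6 without HCD replicate 1 (median -0.06) and 10 without DMSO replicate 3. Of 33 cholesterol and fatty acid synthesis genes, 17 were lower and 3 higher (median -0.20; 11 lower and a median of -0.13 without DMSO replicate 2). The fatty acid elongase Elovl6 (-0.59 ± 0.06), the desaturase Fads2 (-0.56 ± 0.10) and fatty acid synthase Fasn (-0.45 ± 0.09) fell. Among 25 NRF2 targets, 7 were higher and 6 lower (median 0.01), shares near those of all genes (22.3% and 18.4%). Members higher included biliverdin reductase Blvrb (1.43 ± 0.09), the glutathione transferases Gsta4 (1.09 ± 0.08) and Gstm1 (1.01 ± 0.09), the cystine transporter Slc7a11 (1.00 ± 0.13) and ferritin Fth1 (0.87 ± 0.07). The core detoxifying reductase Txnrd1 was lower (-0.35 ± 0.05). Lysosome and autophagy genes were higher for 22 and lower for 6 of 44 (median 0.17), with the hydrolases Gaa (0.82 ± 0.06), Naglu (0.79 ± 0.05) and Ctsl (0.72 ± 0.09) in front.

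Antigen presentation genes were higher in HCD cells, 16 of 18 members tested and 0 lower, with a median of 0.60. The shares over all genes were 22.3% higher and 18.4% lower. B2m, the light chain of MHC class I, had 2409, 2656 and 2488 CPM in HCD and 1553, 1374 and 1456 CPM in DMSO libraries (log2 fold change 0.79 ± 0.08). The class I genes H2-T23 (0.80 ± 0.08), H2-Q4 (0.86 ± 0.10) and H2-Q7 (1.01 ± 0.15) rose, though near-identical copies make the assignment of reads within the H2-Q and H2-T families uncertain. Of 36 interferon response genes, 16 were higher and 1 lower (median 0.37); the lower count was 0 to 2 with 1 library left out. Members of at least 5 CPM included the RNA sensors Dhx58 (1.15 ± 0.12) and Ddx58 (0.97 ± 0.10), the tethering factor Bst2 (0.93 ± 0.08) and the transcription factor Irf9 (0.75 ± 0.08).

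**Figure D3:**
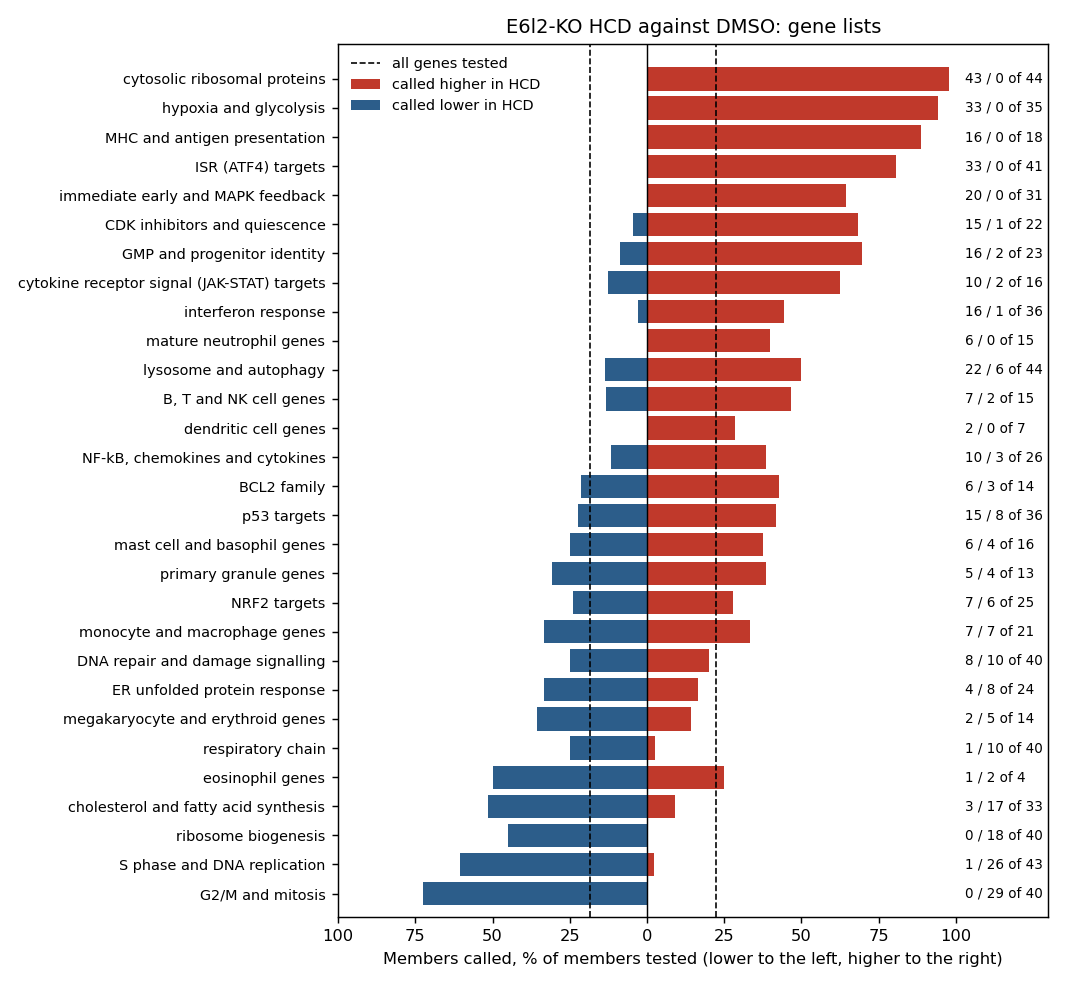
Share of tested members called higher (red, to the right) or lower (blue, to the left) in E6l2-KO HCD against DMSO cells for the 29 gene lists; numbers at the right edge are members higher / lower of those tested. Dashed lines mark the shares over all 14059 genes, 22.3% higher and 18.4% lower, and the longest bars are those of ribosomal proteins and of hypoxia and glycolysis genes.

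Identity genes of the progenitor state were mostly higher. Of 23 GMP and progenitor genes tested, 16 were higher and 2 lower, with a median of 0.32. Among all genes, 22.3% were higher and 18.4% lower. Kit, the stem cell factor receptor, had 433, 411 and 410.1 CPM in HCD and 321, 331 and 319.9 CPM in DMSO libraries (log2 fold change 0.37 ± 0.05), and Flt3 had 351, 320.2 and 339 CPM in HCD and 204, 199 and 197 CPM in DMSO libraries (0.75 ± 0.05). Neither gene's groups overlapped. The myeloid factors Cebpa (0.31 ± 0.06) and Irf8 (0.96 ± 0.13) rose, while Ms4a3, a gene specific to the granulocyte-monocyte path, fell (-0.63 ± 0.11). Hoxb8, whose transgene maintains the line, had 65.2, 64.6 and 52.4 CPM in HCD and 28.9, 28.6 and 26.1 CPM in DMSO libraries (log2 fold change 1.12 ± 0.08); transgene and endogenous reads were not distinguished. Whether the level of Hoxb8 bears on the other changes was not tested. The primary granule list was divided, 5 higher and 4 lower of 13 (median 0.09, between 0.03 without HCD replicate 2 and 0.13 without DMSO replicate 1). Cathepsin G (Ctsg, 0.62 ± 0.07) and myeloperoxidase (Mpo, 0.25 ± 0.08) rose, whereas the granule protease gene Elane fell. The other members that fell do not encode granule proteases. They were the membrane protein gene Igsf6, the histamine-forming Hdc (-0.63 ± 0.06), which is also in the mast cell list, and the protease inhibitor Serpinb1a (-0.61 ± 0.06). The call of Mpo was lost without HCD replicate 1 or without DMSO replicate 2.

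Markers of other blood cells were read for their levels. Called counts below stand beside 22.3% higher and 18.4% lower over all genes tested, and no list was tested as a set. Of 22 mature neutrophil genes, 5 were at 0 in all 6 libraries (Ltf, Ly6g, Retnlg, Fpr1 and Fpr2), and the list summed to 107 to 117 CPM in HCD and 67.2 to 82.0 CPM in DMSO libraries. Of 15 tested, 6 were higher and 0 lower (median 0.29, but 0 without HCD replicate 1 or 2 or DMSO replicate 1 or 2, and 0.49 without DMSO replicate 3), with the largest rises in the collagenase Mmp8 (0.86 ± 0.14) and the integrin Itgam (0.61 ± 0.08). Monocyte and macrophage genes summed to 2117 to 2208 CPM in HCD and 1470.0 to 1616 CPM in DMSO libraries, with C1qa, C1qb and C1qc at 0. Of 21 tested, 7 were higher and 7 lower (median 0.10, between -0.01 without DMSO replicate 2 and 0.21 without DMSO replicate 1). The higher count was 4 without HCD replicate 1 or DMSO replicate 2. The 2 members given next are both risers, and the lower members are not named in this paragraph. Ccr2, the chemokine receptor of monocytes and their progenitors, had 407, 406 and 417 CPM in HCD and 167, 154 and 154 CPM in DMSO libraries (log2 fold change 1.37 ± 0.10), and the macrophage marker Adgre1 had 40.9, 42.9 and 37.5 CPM in HCD and 16.1, 16.4 and 17.3 CPM in DMSO libraries (1.28 ± 0.09). Dendritic cell genes summed to 486 to 508 CPM in HCD and 319.6 to 327 CPM in DMSO libraries, 2 of 7 tested being higher (Flt3 and Bst2) and 0 lower (median 0.04, or -0.06 without HCD replicate 1), with Ccr7 at 0. Mast cell and basophil genes summed to 2716 to 2810.0 CPM in HCD and 2773 to 2847 CPM in DMSO libraries, ranges that overlapped, with 6 higher and 4 lower of 16 (median 0.24, or 0.12 without DMSO replicate 2) and Mcpt1, Cma2, Fcer1a, Mrgprb2 and Slc6a4 at 0. Fcer1g, a signalling chain shared by Fc receptors of many myeloid cells, rose by 0.79 ± 0.07. Hdc, given with the primary granule genes above, is among the 4 lower members, and the others are not named in this paragraph. Eosinophil genes summed to 30.6 to 34.9 CPM in HCD and 15.7 to 18.3 CPM in DMSO libraries, nearly all of it Siglecf (1.17 ± 0.07), with Ear1, Ear2 and Ear6 at 0; 1 was higher and 2 lower of 4 tested (median -1.32, or 0.04 in a fit on the 6 libraries alone). Megakaryocyte and erythroid genes summed to 826 to 874 CPM in HCD and 1146 to 1193 CPM in DMSO libraries, with 2 higher and 5 lower of 14 (median -0.17, or 0.02 without HCD replicate 3) and Hba-a1, Hba-a2 and Car1 at 0. The largest absolute difference in that list was Tfrc, the transferrin receptor of dividing cells (355 ± 25.9 CPM in HCD, 629 ± 6.09 CPM in DMSO; SD, n = 3 each), while the platelet factor Pf4 rose by 1.19 ± 0.11. B, T and NK cell genes summed to 204 to 223 CPM in HCD and 151 to 174 CPM in DMSO libraries, with 7 higher and 2 lower of 15 (median 0.30; 1 lower without HCD replicate 2 or 3 or DMSO replicate 2 or 3), with the largest rise in the early lymphoid gene Dntt (0.66 ± 0.10), and Trac, Ncr1 and Gzma at 0. The part of these cells in the other results was not tested.

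Set directly against E6l2-KO cells with Etoposide, a drug that traps topoisomerase II on DNA breaks, HCD cells differed at 6895 of 14059 genes: 3587 (25.5%) were higher and 3308 (23.5%) lower in HCD. This comparison does not use the DMSO libraries. Of the 29 lists, hypoxia and glycolysis had the median farthest from 0, with 31 members higher and 1 lower in HCD of 35 (median 0.94, against 0.05 over all genes). Ankrd37 had 22.6, 24.2 and 19.0 CPM in HCD, and 2.25, 1.99 and 2.20 CPM in Etoposide libraries (log2 fold change 3.34 ± 0.22), and Ak4 had 18.9, 20.7 and 19.7 CPM in HCD, and 2.25, 2.46 and 1.98 CPM in Etoposide libraries (3.15 ± 0.18). For both genes the Etoposide libraries also lay below the DMSO libraries given above. ATF4 targets were higher in HCD for 32 of 41 members and lower for 0 (median 0.37), and Trib3 had 8.81, 13.7 and 10.1 CPM in HCD, and 0.877, 0.649 and 0.336 CPM in Etoposide libraries (4.14 ± 0.28). Immediate early and MAPK feedback genes were higher for 21 of 31 and lower for 0 (median 0.53). Egr1, with 0.668, 0.696 and 0.447 CPM in Etoposide libraries, had the largest fold of the named genes higher in HCD (4.48 ± 0.52). In its HCD libraries, given above, replicate 1 stood far above the others. Egfl7 (3.32 ± 0.12) and Tlr12 (3.16 ± 0.17) were also far higher in HCD.

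Lists with more members lower than higher in HCD, set against Etoposide, included those of p53 targets (8 higher, 22 lower of 36, median -0.33), NRF2 targets (4 higher, 18 lower of 25, median -0.32) and the respiratory chain (0 higher, 35 lower of 40, median -0.37). In that comparison 25.5% of all genes were higher and 23.5% lower in HCD. Cdkn1a had 17.4, 19.4 and 16.0 CPM in HCD, and 28.0, 30.8 and 27.4 CPM in Etoposide libraries (log2 fold change -0.71 ± 0.13), so that both stressors lay above DMSO with Etoposide the higher. Ccng1 had 81.4, 93.2 and 89.0 CPM in HCD, and 200.1, 188 and 197 CPM in Etoposide libraries (-1.15 ± 0.05). Mdm2 had 32.3, 30.8 and 34.0 CPM in HCD, and 53.9, 52.6 and 55.4 CPM in Etoposide libraries (-0.74 ± 0.05). Ccng1 and Mdm2 were thus below Etoposide in every HCD library, and Mdm2 was below DMSO as well. The responses to HCD and to Etoposide share their DMSO libraries, so the list counts are given side by side only. Against DMSO, 15 p53 targets were higher and 8 lower with HCD, and 22 higher and 2 lower with Etoposide, where 18.9% of all genes were higher and 16.1% lower. For hypoxia and glycolysis these counts were 33 higher and 0 lower with HCD, and 0 higher and 21 lower with Etoposide. Genes with the largest excess in Etoposide cells were the adenylate kinase Ak1 (0.526, 0.58 and 0.719 CPM in HCD, 5.93, 5.98 and 5.93 CPM in Etoposide libraries), Igsf6 (-2.38 ± 0.14), the muscle gene Neb (-1.94 ± 0.18), Tfec (-1.86 ± 0.10) and Elane (-1.76 ± 0.14). Exosc6, a subunit of the RNA exosome, had 0 counts in all HCD libraries, and 10.8, 9.79 and 9.62 CPM in Etoposide libraries, at least 259.9-fold lower in HCD at a floor of 3 counts over the group. Its exons overlap those of Aars on the same strand, so this value depends on how shared reads were assigned.

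The response to density in E6l2-KO cells was then set against that of wildtype cells, which share no library with it. The difference of the responses (E6l2-KO minus wildtype) passed the threshold for 1 of 14059 genes (0.00711%), and 611 genes had an unadjusted p under 0.05. By DESeq2, 2 genes passed. That 1 gene was Calml4, a calmodulin-like protein. It had 14.2, 17.6 and 14.1 CPM in E6l2-KO HCD and 7.49, 5.85 and 7.07 CPM in E6l2-KO DMSO libraries, and 0.17, 0.355 and 0.33 CPM in wildtype HCD and 0.609, 0.619 and 0.386 CPM in wildtype DMSO libraries. Wildtype cells thus held little of this transcript at either density. The log2 response was 1.17 in E6l2-KO and -0.91 in wildtype cells, a difference of 2.07 ± 0.37 (adjusted p = 0.0462), and the call was lost in 10 of 18 alternatives, including 8 of the 12 that leave out 1 library. A call missed in this test does not show that the responses were equal. Cdkn1a responded by 1.33 in E6l2-KO cells and 2.39 in wildtype cells (difference -1.06 ± 0.22, adjusted p = 0.169). Side by side, the hypoxia and glycolysis list had 33 of 35 members higher with a median of 0.58 in E6l2-KO cells, and 32 higher with a median of 0.57 in wildtype cells, where 24.9% of all genes were higher and 23.6% lower. ATF4 targets had 33 of 41 higher with a median of 0.42 in E6l2-KO cells, and 36 with a median of 0.51 in wildtype cells. Of p53 targets, 15 were higher and 8 lower in E6l2-KO cells, and 15 higher and 8 lower in wildtype cells.

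Against E6l2-Trp53-KO cells, the difference of the density responses (E6l2-KO minus E6l2-Trp53-KO) passed for 192 genes, 94 (0.669%) with a higher and 98 (0.697%) with a lower log2 fold change in E6l2-KO cells. Higher and lower here compare signed values. Of the 41 ATF4 targets, 11 had a higher log2 fold change in E6l2-KO cells and 0 a lower one, with a median difference of 0.35, against -0.005 over all genes. Trib3 had 8.81, 13.7 and 10.1 CPM in E6l2-KO HCD and 2.12, 2.78 and 2.96 CPM in E6l2-KO DMSO libraries, and 4.92, 7.55 and 8.14 CPM in E6l2-Trp53-KO HCD and 3.43, 5.36 and 5.49 CPM in E6l2-Trp53-KO DMSO libraries. The log2 response was 2.04 in E6l2-KO and 0.51 in E6l2-Trp53-KO cells, a difference of 1.54 ± 0.29 (adjusted p = 0.00384). Both ends differed, since the E6l2-Trp53-KO DMSO libraries lay above and the HCD libraries below those of E6l2-KO cells. Slc7a11, the cystine transporter, had 21.9, 41.1 and 33.4 CPM in E6l2-KO HCD and 16.1, 15.8 and 16.2 CPM in E6l2-KO DMSO libraries, and 14.4, 17.4 and 15.6 CPM in E6l2-Trp53-KO HCD and 14.6, 16.3 and 15.6 CPM in E6l2-Trp53-KO DMSO libraries (difference 0.98 ± 0.18). The other called members were Chac1 (0.92 ± 0.17), Nupr1 (0.77 ± 0.17), Slc1a4 (0.77 ± 0.18), Sesn2 (0.56 ± 0.11), Cebpb (0.55 ± 0.12), Gpt2 (0.53 ± 0.13), Slc7a5 (0.49 ± 0.12), Nars (0.43 ± 0.10) and Slc3a2 (0.43 ± 0.08), mostly transporters and amino acid enzymes. The count of ATF4 genes was 19 without E6l2-KO HCD replicate 1, 6 without HCD replicate 2, 7 without HCD replicate 3 and 7 without E6l2-KO DMSO replicate 1, and 0 members were lower in E6l2-KO cells under the alternatives run. Trib3, Chac1, Sesn2 and Slc3a2 kept their calls in all 18 alternatives. In the hypoxia list, 0 members had a higher and 0 a lower log2 fold change in E6l2-KO cells, and of 36 p53 targets 2 (Bax, 0.40 ± 0.10, and Sesn2) had a higher and 1 (Trp53inp1, -0.42 ± 0.10) a lower one. For Bax the log2 fold change was -0.08 in E6l2-KO cells, not called, and -0.48 in E6l2-Trp53-KO cells, and for Trp53inp1 it was 0.40 in E6l2-KO and 0.82 in E6l2-Trp53-KO cells. Leaving out 1 library ended the call of Bax in 9 of 12 cases and that of Trp53inp1 in 7 of 12. The total of 192 itself depended on single libraries: it was 72 without E6l2-Trp53-KO HCD replicate 2 and 353 without E6l2-Trp53-KO HCD replicate 1.

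**Figure D4:**
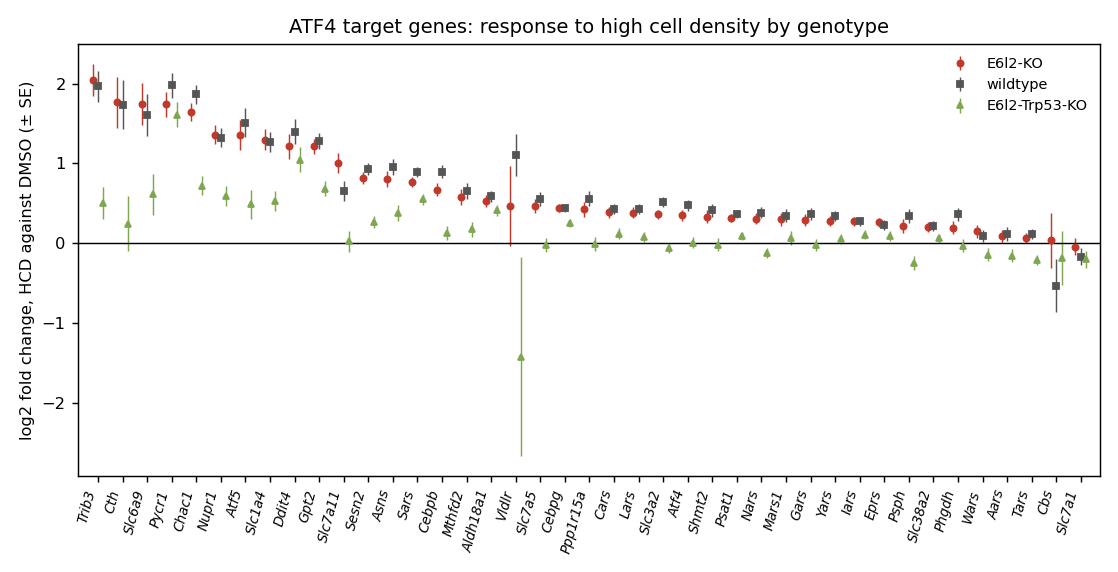
Log2 fold change (± SE) of HCD against DMSO for the 41 ATF4 target genes tested, in E6l2-KO (red circles), wildtype (grey squares) and E6l2-Trp53-KO (green triangles) cells, ordered by the E6l2-KO value. E6l2-KO and wildtype values lie close together, and E6l2-Trp53-KO values lie mostly lower; 11 differences between E6l2-KO and E6l2-Trp53-KO passed the test.

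Other named genes with a higher log2 fold change in E6l2-KO than in E6l2-Trp53-KO cells were Fam78b (difference 1.34 ± 0.30), the serotonin receptor Htr1b (1.08 ± 0.18), the Wnt inhibitor Dkk1 (1.04 ± 0.24) and the myeloid receptor Trem1 (0.99 ± 0.16). Fam78b rose in both, by 2.92 in E6l2-KO and 1.58 in E6l2-Trp53-KO cells. For Htr1b the log2 fold change was -0.04 in E6l2-KO cells, not called, and -1.11 in E6l2-Trp53-KO cells. Those with a lower log2 fold change in E6l2-KO cells were the globin gene Hbb-bt (-1.59 ± 0.38), Gsap (-1.25 ± 0.26), Rabgap1l (-1.20 ± 0.24), the kinase Pim2 (-1.10 ± 0.23), the erythroid repressor Gfi1b (-1.08 ± 0.20) and Abcg3 (-0.99 ± 0.25). Gfi1b had 3.86, 2.48 and 3.06 CPM in E6l2-KO HCD and 5.84, 5.12 and 5.39 CPM in E6l2-KO DMSO libraries, and 18.2, 18.7 and 23.4 CPM in E6l2-Trp53-KO HCD and 18.0, 16.6 and 15.1 CPM in E6l2-Trp53-KO DMSO libraries. It fell in E6l2-KO cells (-0.80), against 0.28 in E6l2-Trp53-KO cells. All 3 E6l2-KO HCD and all 3 E6l2-KO DMSO libraries had less Gfi1b than any E6l2-Trp53-KO library. Abcg3 and Hbb-bt stayed under 2 CPM in all 6 E6l2-KO libraries, and leaving out 1 library ended the call of Abcg3 in 9 of 12 cases, of Hbb-bt in 7 and of Dkk1 in 5.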

How the data were processed

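RNA was extracted from sorted cells with a column kit and made into libraries with an Illumina TruSeq RNA kit, per the labels' protocols. Illumina reads were mapped and counted in the SUSHI pipeline, per the series' design text. The aligner, counter, strand setting, genome build and annotation are not stated in those sources. The authors deposited 1 table in which every gene has an estimated count per library, for 25528 genes and 48 libraries, without normalization. Of its values, 71.5% lay within 0.01 of a whole number, and all were rounded to whole counts before testing. Gene IDs were matched to GENCODE M21 (99.6%), which also gave the exon overlaps. The counting is not stated to use strand, so reads are also uncertain for other genes in the text whose exons overlap a gene on the opposite strand (Bad, Bcl2, Bnip3, Bop1, Ccnd2, Cd34, Cdc20, Cdkn1a, Cebpa, Cebpb, Csf1r, Ddb2, Dhx58, Dnajb9, Elovl6, Fanca, Fancm, Fen1, Grwd1, H2-Q4, Htr1b, Kif20a, Mpo, Ndrg1, Neb, Pim1, Rabgap1l and Slc2a1) or on the same strand (Bax, Ctsl, Irf9, Itgam and Rpl12).

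Counts of the 36 libraries of 12 groups (4 genotypes, each with HCD, DMSO or Etoposide) were fitted together with edgeR 4.0.16 (R 4.3.3, limma 3.58.1), using filterByExpr, TMM factors and the quasi-likelihood F test with 24 residual degrees of freedom. The shared fit takes the spread of every group into each test. Calls required an adjusted p under 0.05 (Benjamini-Hochberg, 14059 genes). Differences of responses were contrasts of 12 libraries. Levels are CPM scaled by TMM factors, and each SE is that of the log2 fold change. The test of HCD against DMSO was also run on simulated data with known changes. Far fewer genes were changed there than were called here, and differences of responses were not simulated. Within groups, libraries differed by more than sampling noise (chi-square per degree of freedom from 5.80 to 12.5 in the E6l2-KO HCD and DMSO groups). This does not show whether they came from separate cultures, which the labels do not state. Each library was counted as its own replicate. Deep libraries leave counting error small for all but the genes near 1 CPM.

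Members, gene lists and rules were chosen with earlier results of these data known. Named genes were a fixed panel, the 14 with the largest change in each direction (at least 5 CPM in the higher group, no overlap between groups, no predicted models), up to 5 called members of each of 29 lists by size of change, and 6 in each direction for the other comparisons. Another 21 genes were named for their roles or levels after their values were seen, among them Vegfa, Slc2a1, Ldha, Pdk1, Asns, Atf4, Hspa5, Txnrd1, Cd34, Csf1r, the lesser ATF4 targets in the comparison with E6l2-Trp53-KO cells, Lars2 and Gm10800. Of the 849 list genes, 4 (Aldoa, Azu1, Ddit3 and Pvt1) are not analysed here. Alternatives were RLE factors, no filter on low counts, the replicate number as a block, DESeq2 1.42.0, a fit on the compared groups alone, leaving out each library and, chosen after seeing the data, an offset for transcript length and GC content.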

Additional observations from a re-analysis of the deposited data

Results flagged for a closer look

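Each gene named here stands out because its response to density differed between genotypes by a test of the difference itself. Values are the log2 response in E6l2-KO cells minus that in the other genotype, so higher and lower compare signed values. Against wildtype cells, Calml4 differed by 2.07 ± 0.37. Its call was lost in 10 of 18 alternatives, including 8 of the 12 that leave out 1 library. Wildtype cells held little of this transcript at either density.

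Against E6l2-Trp53-KO cells, the stress and amino acid genes Trib3 (1.54), Slc7a11 (0.98), Chac1 (0.92), Nupr1 (0.77), Slc1a4 (0.77), Sesn2 (0.56), Cebpb (0.55), Gpt2 (0.53), Slc7a5 (0.49), Nars (0.43) and Slc3a2 (0.43) had a higher log2 response in E6l2-KO cells. So did Fam78b (1.34), Htr1b (1.08), Dkk1 (1.04), Trem1 (0.99) and Bax (0.40). The log2 response was lower in E6l2-KO cells for Hbb-bt (-1.59), Gsap (-1.25), Rabgap1l (-1.20), Pim2 (-1.10), Gfi1b (-1.08), Abcg3 (-0.99) and Trp53inp1 (-0.42).

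Of the 23 genes named against E6l2-Trp53-KO cells, 8 kept their call in all 18 alternatives: Trib3, Chac1, Sesn2, Slc3a2, Htr1b, Trem1, Rabgap1l and Gfi1b. Among these 23, the call was lost most often for Abcg3 (11 of 18), Bax (9), Gpt2, Hbb-bt and Trp53inp1 (8 each) and Slc7a5 (7).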

How the results depend on the processing

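The count of 5724 genes called in E6l2-KO HCD against DMSO cells was 5735 with RLE factors, 5352 without a filter on low counts, 5485 by DESeq2, 5839 in a fit on the 6 libraries alone, 6040 with the length and GC offset and 4786 to 5160 with 1 library left out. Against Etoposide cells, the 6895 calls stayed between 6015 and 7017. Of the 175 genes named for HCD against DMSO, 13 gained or lost a call in at least 1 alternative, and 0 turned direction in the alternatives run.

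The difference of responses between E6l2-KO and wildtype cells, 1 gene, was 3 genes without a filter, 2 by DESeq2, 0 in a fit on the compared groups alone and 0 to 1 with 1 library left out. Between E6l2-KO and E6l2-Trp53-KO cells, the 192 genes became 302 without a filter, 297 by DESeq2, 78 on the compared groups alone and 72 to 353 with 1 library left out. Single libraries moved that count by over 1.5 times in 10 of 12 cases. It was 289, 86 and 98 without E6l2-KO HCD replicate 1, 2 or 3, and 112 and 116 without E6l2-KO DMSO replicate 1 or 2. It was 353, 72 and 112 without E6l2-Trp53-KO HCD replicate 1, 2 or 3, and 101 and 106 without E6l2-Trp53-KO DMSO replicate 2 or 3. The count of ATF4 targets among them, 11, was 23 without a filter and 7 on the compared groups alone. The cause was not tested.

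Replicate numbers were not taken to pair the samples, since the labels do not say so: same-numbered HCD and DMSO libraries of E6l2-KO cells had correlated deviations of -0.109, -0.185 and 0.004. Across the groups of the other comparisons these values ran up to 0.334, for E6l2-KO and wildtype HCD replicate 1, and in 0 pairs of groups did all 3 exceed 0.1. HCD replicate 1 had the lowest mitochondrial share of counts of its group in all 4 genotypes. These shares were 1.93% in E6l2-KO, 1.99% in wildtype, 1.88% in Trp53-KO and 1.73% in E6l2-Trp53-KO cells. Whether same-numbered libraries were handled together was not tested. With the replicate number as a block, calls numbered 5824 for HCD against DMSO, 6960 against Etoposide, 0 for the difference from wildtype and 243 for the difference from E6l2-Trp53-KO. Depth limits the genes near 1 CPM, and 3 libraries a group limit every difference of responses.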

Other observations

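A few genes outside the rule for named genes had large differences and were picked out after their values were seen. Lars2, the mitochondrial leucyl-tRNA synthetase, had 119, 115 and 130.2 CPM in HCD and 36.7, 33.4 and 33.1 CPM in DMSO libraries (log2 fold change 1.82 ± 0.14). The predicted gene Gm10800 had 135, 3.77 and 4.58 CPM in HCD and 0.199, 0.244 and 0.12 CPM in DMSO libraries, so that HCD replicate 1 stood far above every other library of both groups. Its log2 fold change of 7.97 became 4.47, with an edgeR adjusted p of 0.287, without HCD replicate 1. Klf2, a transcription factor of lymphocyte and endothelial quiescence, stayed under 1 CPM, at 0.964, 0.911 and 0.87 CPM in HCD and 0.265, 0.0696 and 0.18 CPM in DMSO libraries.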
